A study of Mus musculus with 4 samples.

Results

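The genes described here encode the transcription factor NRF2 (Nfe2l2), its sensor KEAP1 and the enzymes and carriers that detoxify peroxides, superoxide, quinones and free iron. They were chosen by name: a row of the deposited count table belonged to the set if its gene name equalled 1 of 37 listed symbols, and all 37 were found among 23420 rows. RNA was sequenced from cultures of 2 mouse keratinocyte lines, MK2 and MK1, with 2 biological replicates of each. Keratinocytes form the epidermis, and the study concerns p63, a transcription factor that maintains this epithelium, in mouse and human. The labels state for both groups only the line and the cell type. They name no strain, sex, genotype, treatment, passage number or means of immortalisation, and nothing that ties a culture of MK2 to a culture of MK1. Each group is thus 1 line, and the p-values measure how cultures of a line vary, not how mouse lines vary.

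NRF2 is held at a low level by KEAP1, which presents it to a CUL3 ubiquitin ligase for degradation. Electrophiles and peroxides modify cysteines of KEAP1, after which NRF2 accumulates, pairs with small MAF proteins and binds antioxidant response elements near its target genes. The control is therefore largely on the protein and not on the Nfe2l2 transcript. The epidermis faces light, oxygen and chemicals, and in keratinocytes the pathway is also known for its part in the formation of the cornified layer.

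Libraries held 25237391 to 30261111 assigned counts. Levels of 1 gene are given as CPM, counts scaled to library size with TMM, and levels of different genes are compared only as TPM, which also divides by gene length. Fold changes are MK2 minus MK1 on the log2 scale with their standard error, and a gene was called at an adjusted p under 0.05 over all tested genes (edgeR, quasi-likelihood, Benjamini-Hochberg). All 11 basal keratinocyte markers checked were measured in both lines, with summed levels of 23355 and 20446 CPM in MK2 and 25593 and 25346 CPM in MK1, most of it from Krt5 and Krt14. Of these 11 markers 1 was higher (Itga6) and 4 were lower (Cdh1, Col17a1, Lamb3 and Perp), and Krt15 had 27.9 and 0.247 CPM in the MK2 cultures and 4.77 and 4.47 CPM in MK1. Markers of other cells also differed. The sum of 14 leukocyte markers was 2.54 and 3.42 CPM in MK2 and 51.4 and 48.4 CPM in MK1, with 7 of the 14 at 0 counts in MK2, among them the B-cell genes Cd79b and Ms4a1. The sum of 5 simple epithelium markers was 35.7 and 29.5 CPM in MK2 and 3783 and 3922 CPM in MK1. The sum of 8 proliferation genes was 2979 and 2323 CPM in MK2 and 1430.1 and 1737 CPM in MK1. The part of these differences in the results below was not tested, and in bulk RNA fewer cells of a type and less RNA per cell cannot be told apart.

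The antioxidant genes moved in both directions. Of the 35 that had enough counts to be tested, 12 were higher in MK2 and 9 lower, together 60%, against 54.6% of all 12479 tested genes (25.9% higher and 28.6% lower). Their median log2 change was 0.05, and that of all tested genes -0.01. The sign of the members' median depended on the scaling and on the libraries used. Nqo1, Gpx2 and Prdx4 passed the count filter through 1 line alone and so could only differ in that direction. Among the 32 others, 10 were higher (31.2%), 8 lower (25%) and 14 were not called. Of the 11574 genes that reached the filter level in both lines, 26.4% were higher and 25.3% lower. A test for changes beyond 2-fold called 4 members higher (Gpx2, Slc7a11, Nqo1 and Txn1) and 3 lower (Prdx4, Srxn1 and Prdx5), against 13.3% of all tested genes (3.25% higher and 10.1% lower). The filter had fixed the direction of Gpx2, Nqo1 and Prdx4, so only Slc7a11, Txn1, Srxn1 and Prdx5 were free to go either way. Of those, Slc7a11 and Srxn1 passed the test in every alternative run, as did Gpx2 and Prdx4. The calls on Nqo1, Txn1 and Prdx5 were lost in DESeq2 and without MK1 replicate 1. At the plain threshold, fewer members were called higher without MK1 replicate 1 or MK1 replicate 2. Fewer of all genes were called higher with any 1 library left out. Levels did not overlap between the cultures of the lines for 28 members, against 80.5% of all tested genes.

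**Figure D1:**
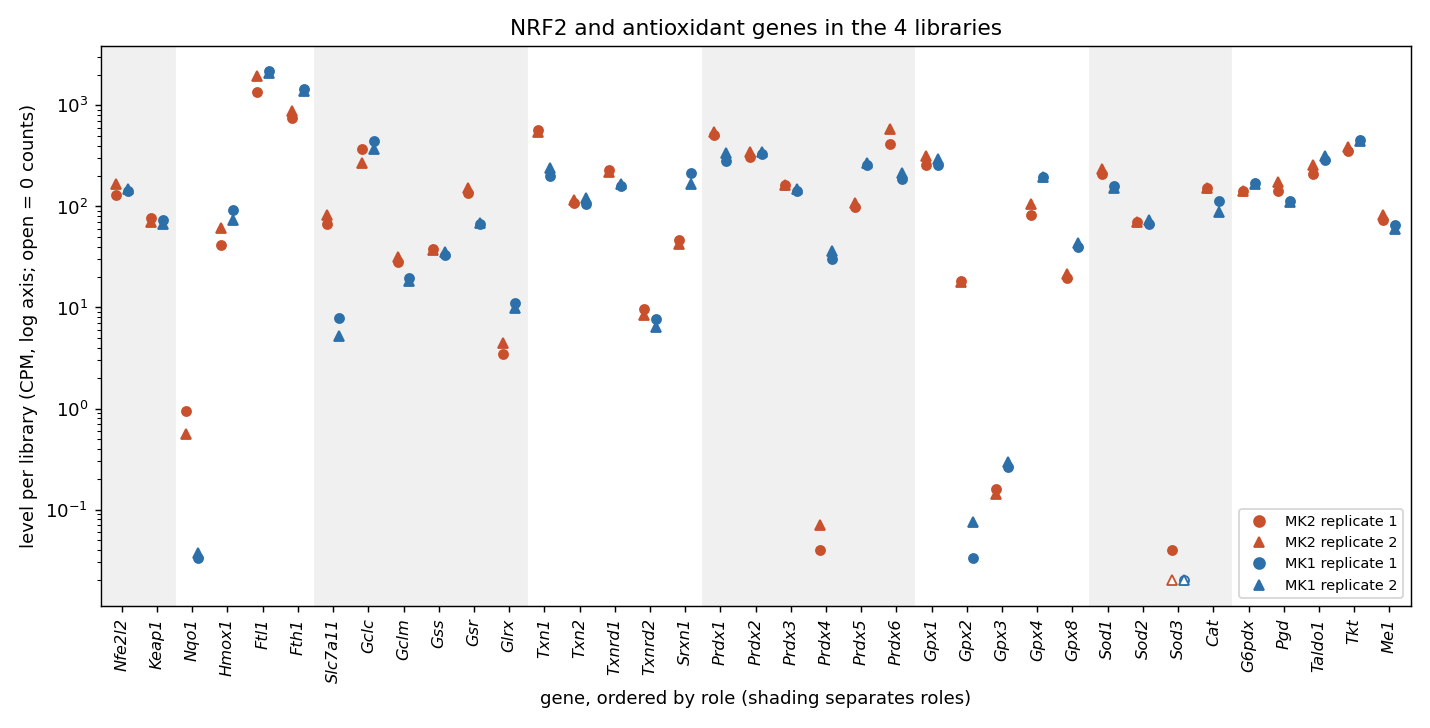
Level of each of the 37 genes in each of the 4 libraries, in CPM on a log axis, with MK2 in red and MK1 in blue, circles for replicate 1 and triangles for replicate 2, and open symbols for 0 counts. Most genes lie close together in both lines, whereas Nqo1, Slc7a11, Srxn1, Prdx4 and Gpx2 stand apart.

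Neither the sensor nor the factor passed the test. Nfe2l2 (mm10 chromosome 2, 75675519 to 75704641) had 130 and 166 CPM in MK2 and 142 and 148 CPM in MK1. Its log2 change was 0.03 ± 0.14 and was not called (edgeR adjusted p = 0.889). Keap1 (chromosome 9, 21229730 to 21239332) had 76.9 and 70.5 CPM in MK2 and 73.8 and 67.5 CPM in MK1, a log2 change of 0.06 ± 0.11 (edgeR adjusted p = 0.670). The cultures of the lines overlapped for both genes. The sign of both small changes depended on the setting, and with the median of its chromosome removed Nfe2l2 had a log2 change of -0.33 and was still not called. Per length, Nfe2l2 was 3.05 and 4.27 times as abundant as Keap1 in MK2 and 3.49 and 3.98 times in MK1.

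Promoter windows of 300 bases, from 250 before to 50 after the annotated start, were read from RefSeq (GRCm38.p6, on which mm10 is based) for 32 of the 37 genes. Hmox1, Gclc, Gsr, Prdx6 and Sod3 were not matched. The core of the antioxidant response element was searched as TGACNNNGC on both strands, where N is any base. It lay in the windows of 9 of the 32 genes, 28.1%, against 14.0% of 27025 genes in the same table: Nfe2l2, Gclm, Txnrd1, Srxn1, Prdx1, Sod1, G6pdx, Pgd and Me1. Of these 9, 5 were higher in MK2 (Gclm, Txnrd1, Prdx1, Sod1 and Pgd), 1 was lower (Srxn1) and 3 were not called. All 9 reached the filter level in both lines, and of all genes that did so 26.4% were higher and 25.3% lower. With the chromosome median removed, the calls on Sod1 and Pgd were lost and Me1 was called higher. Without MK1 replicate 1 the calls on Txnrd1, Sod1 and Pgd were lost, at log2 changes of 0.41, 0.56 and 0.53. Without MK1 replicate 2 those on Gclm, Txnrd1, Sod1 and Pgd were lost, at 0.63, 0.50, 0.48 and 0.50. Fewer of all genes were also called higher with any 1 library left out. The AP-1 element was searched as TGAGTCA on both strands. It lay in 4 of the 32 windows (Srxn1, Prdx1, Me1 and Glrx), 12.5%, against 5.95% of all genes. It overlapped an antioxidant response core in Prdx1 and Me1. An element bound by ATF4, searched as TGATGNAA on both strands, lay only in the window of Slc7a11 among these 32 (3.12%, against 4.51% of all genes). A match is a description of letters and not of binding. The 4 windows below belong to genes that moved in opposite directions, with matches in capitals and all other bases in lower case.
Srxn1: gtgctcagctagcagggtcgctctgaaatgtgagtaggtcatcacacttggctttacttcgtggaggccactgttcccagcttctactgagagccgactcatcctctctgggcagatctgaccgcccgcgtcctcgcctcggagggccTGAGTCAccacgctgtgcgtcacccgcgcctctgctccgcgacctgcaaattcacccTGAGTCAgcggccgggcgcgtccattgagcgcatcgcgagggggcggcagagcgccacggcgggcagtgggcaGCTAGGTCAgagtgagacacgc
Prdx1: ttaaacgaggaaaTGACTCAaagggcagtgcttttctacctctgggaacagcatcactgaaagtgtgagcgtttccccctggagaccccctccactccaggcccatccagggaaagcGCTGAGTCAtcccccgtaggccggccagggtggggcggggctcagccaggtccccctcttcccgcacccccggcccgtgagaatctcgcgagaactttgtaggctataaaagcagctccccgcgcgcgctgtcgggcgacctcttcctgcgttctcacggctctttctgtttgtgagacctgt
Gclm: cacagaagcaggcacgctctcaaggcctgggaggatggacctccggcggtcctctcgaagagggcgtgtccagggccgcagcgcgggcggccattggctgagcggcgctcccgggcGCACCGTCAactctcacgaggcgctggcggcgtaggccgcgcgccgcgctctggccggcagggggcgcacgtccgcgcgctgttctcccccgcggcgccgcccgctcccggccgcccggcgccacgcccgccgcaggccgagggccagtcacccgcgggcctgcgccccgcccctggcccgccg
Slc7a11: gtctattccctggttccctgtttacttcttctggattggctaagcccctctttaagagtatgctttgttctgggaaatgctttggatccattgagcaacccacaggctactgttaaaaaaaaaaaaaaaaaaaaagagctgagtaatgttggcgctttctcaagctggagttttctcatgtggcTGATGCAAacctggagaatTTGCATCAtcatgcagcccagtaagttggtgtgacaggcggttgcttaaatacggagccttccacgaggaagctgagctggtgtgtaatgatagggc
Each is written 5′ to 3′ on the strand of its gene. The Srxn1 window (chr2:152105274-152105573, plus strand) holds AP-1 matches at -102 and -45 and an antioxidant response core at 29 after the start. The Prdx1 window (chr4:116685349-116685648, plus strand) holds an AP-1 match at -237 and, at -133, an antioxidant response core that contains a second AP-1 match. The Gclm window (chr3:122245307-122245606, plus strand) holds 1 core at -134. The Slc7a11 window (chr3:50443564-50443863, minus strand) holds a pair of ATF4 elements at -66 and -47, on opposite strands. The windows of Nqo1, Gpx2 and Prdx4 held none of the 3 motifs. Sequence outside the windows was not searched, so a window without a match does not show that a gene lacks such elements.

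Among genes of quinone, heme and iron handling, the classical NRF2 target was almost silent. Nqo1 (chromosome 8, 107388225 to 107403205), which reduces quinones, had 0.953 and 0.564 CPM in MK2 and 0.0329 and 0.0372 CPM in MK1. That is 24 and 16 counts in MK2 and 1 count in each MK1 library. The ratio of summed counts was 21.4, with a 95% counting interval of 5.55 to 183 (edgeR adjusted p = 0.00180). The call beyond 2-fold was lost without MK1 replicate 1 (edgeR adjusted p = 0.108) or MK1 replicate 2 (edgeR adjusted p = 0.0842) and in DESeq2 (adjusted p = 0.167). Per length, Nqo1 ranked 34 of the 37 genes in MK2 and 36 in MK1. Its place near the bottom in both lines stands beside the mid-range ranks of Nfe2l2, 17 in MK2 and 18 in MK1.

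Ferritin heavy chain and Hmox1 fell in MK2. Fth1 (chromosome 19, 9980600 to 9985111), the ferritin heavy chain that oxidises iron for storage, had 759 and 873 CPM in MK2 and 1466 and 1394 CPM in MK1. The lines did not overlap, and Fth1 fell by 0.81 ± 0.11 (edgeR adjusted p = 0.00144). The light chain gene Ftl1 (chromosome 7, 45457944 to 45459886), had 1365 and 1961 CPM in MK2 and 2173 and 2109.7 CPM in MK1. Its log2 change of -0.36 ± 0.17 was not called (edgeR adjusted p = 0.114) because of no single rule other than its p, although leaving out MK2 replicate 2 gave -0.65 and a call (edgeR adjusted p = 0.00137). Ferritin was the most abundant product of the set, with Ftl1 at rank 1 and Fth1 at rank 2 by TPM in both lines. Their summed level was 3856 and 5150.0 TPM in MK2 and 6797 and 6409.7 TPM in MK1. Copies of both ferritin genes are annotated as pseudogenes in GENCODE M21, as are copies of Txn1, Prdx6 and Gpx4, so the counts of these genes are uncertain where reads match several places. Hmox1 (chromosome 8, 75093618 to 75100593), the inducible heme oxygenase, had 41.5 and 61.7 CPM in MK2 and 91.6 and 73.2 CPM in MK1. It fell by 0.67 ± 0.20 (edgeR adjusted p = 0.0283), a call lost without MK1 replicate 1 (edgeR adjusted p = 0.185), MK1 replicate 2 (edgeR adjusted p = 0.0548) or MK2 replicate 1 (edgeR adjusted p = 0.0604).

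The cystine carrier and the enzymes of glutathione supply moved unequally. Glutathione is made from cysteine, glutamate and glycine, and cystine enters through the exchanger xCT, encoded by Slc7a11. Slc7a11 (chromosome 3, 50364936 to 50443613) had 66.9 and 82.5 CPM in MK2 and 7.79 and 5.21 CPM in MK1. All MK2 cultures were far above MK1, and the gene rose by 3.52 ± 0.21 on the log2 scale, 11.4-fold (edgeR adjusted p = 5.78e-05). Slc3a2, the heavy chain that carries xCT to the membrane, was looked at after its value was seen. It had 415 and 490 CPM in MK2 and 295 and 241 CPM in MK1 and rose by 0.76 ± 0.14 (edgeR adjusted p = 0.00442).

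Glutamate-cysteine ligase, the rate-limiting enzyme, has a catalytic subunit (Gclc) and a modifier subunit (Gclm). Gclm (chromosome 3, 122245557 to 122267215) had 28.3 and 31.8 CPM in MK2 and 19.4 and 18.3 CPM in MK1, and rose by 0.67 ± 0.13 (edgeR adjusted p = 0.00491). Without MK1 replicate 2 its call was lost (edgeR adjusted p = 0.0507). Gclc (chromosome 9, 77754535 to 77794489) had 372 and 266 CPM in MK2 and 443 and 370 CPM in MK1, with overlapping cultures. Its log2 change of -0.35 ± 0.18 was not called (edgeR adjusted p = 0.136), although leaving out MK2 replicate 1 gave -0.61 and a call (edgeR adjusted p = 0.00752). Per length, Gclc exceeded Gclm by 7.95 and 5.06 times in MK2 and 13.8 and 12.2 times in MK1. An exact permutation test of such a ratio over 2 against 2 libraries cannot give a two-sided p below 0.333, so the ratio is described only. Gss, glutathione synthetase, had 38.2 and 37.1 CPM in MK2 and 33.3 and 35.7 CPM in MK1 and was not called (edgeR adjusted p = 0.354).

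The recycling enzymes went in opposite directions. Gsr (chromosome 8, 33653238 to 33698162), the reductase that restores oxidised glutathione with NADPH, had 135 and 152 CPM in MK2 and 67.1 and 68.7 CPM in MK1. It rose by 1.08 ± 0.11, 2.11-fold (edgeR adjusted p = 3.93e-04). Glrx (chromosome 13, 75839886 to 75850151), a glutaredoxin that removes glutathione from proteins, had 3.46 and 4.41 CPM in MK2 and 11.1 and 9.87 CPM in MK1. It fell by 1.41 ± 0.20, 2.66-fold (edgeR adjusted p = 0.00141). The lines did not overlap for either gene, and both calls held in all 13 alternatives.

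**Figure D2:**
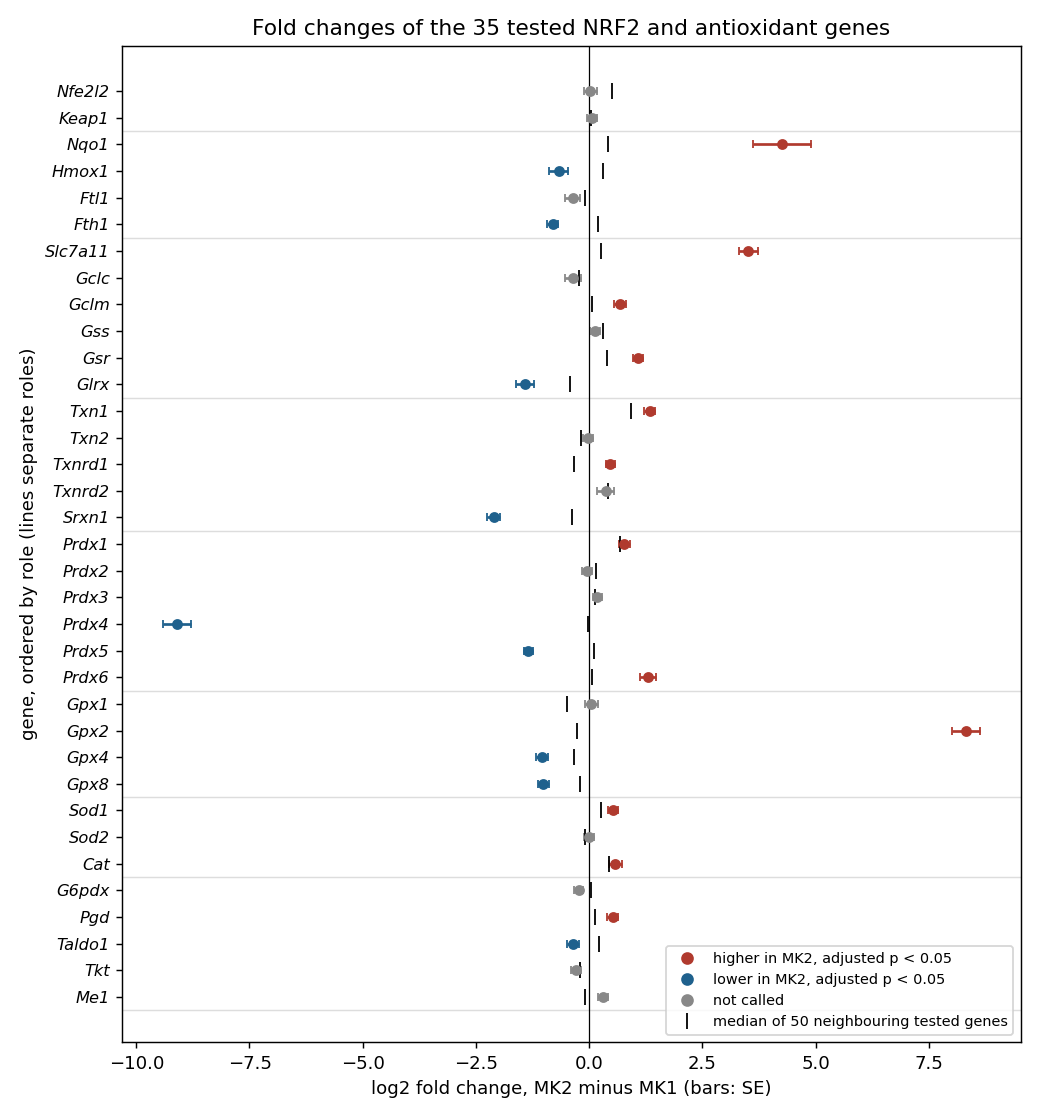
Log2 fold change (MK2 minus MK1) of the 35 tested genes with standard errors, ordered by role, in red where higher, blue where lower and grey where not called, and short black lines for the median of the 50 neighbouring tested genes on the chromosome. Txn1 (1.34) and Prdx1 (0.77) lie beside neighbourhood medians of 0.92 and 0.67, whereas the medians around Gpx2, Slc7a11 and Prdx4 lie between -0.28 and 0.25.

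In the thioredoxin system, the cytosolic carrier rose and the enzyme that repairs peroxiredoxins fell. Thioredoxin reduces peroxiredoxins and is itself reduced by thioredoxin reductase with NADPH. Txn1 (chromosome 4, 57943373 to 57956411), the cytosolic thioredoxin, had 569 and 543 CPM in MK2 and 201 and 238 CPM in MK1. It rose by 1.34 ± 0.12, 2.53-fold (edgeR adjusted p = 2.57e-04). The call beyond 2-fold was lost without MK1 replicate 1 (edgeR adjusted p = 0.244), with the replicate block (edgeR adjusted p = 0.0504), with the chromosome median removed and in DESeq2 (adjusted p = 0.143). The 50 tested genes around Txn1 had a median log2 change of 0.92, and the part of that regional level in the change of Txn1 was not tested. The cytosolic reductase Txnrd1 (chromosome 10, 82833951 to 82897724), had 230 and 220 CPM in MK2 and 158 and 168 CPM in MK1. Txnrd1 rose by 0.46 ± 0.10 (edgeR adjusted p = 0.00850), a call lost without MK1 replicate 1 (edgeR adjusted p = 0.0923) or MK1 replicate 2 (edgeR adjusted p = 0.0529). Per length, Txnrd1 stood at 0.106 and 0.106 times the level of Txn1 in MK2 and at 0.206 and 0.185 times in MK1.

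Srxn1 (chromosome 2, 152105524 to 152111376) encodes sulfiredoxin, which restores overoxidised peroxiredoxins. It had 46.1 and 42.1 CPM in MK2 and 212 and 169 CPM in MK1. Both MK2 cultures were far below MK1, and Srxn1 fell by 2.11 ± 0.14, 4.32-fold (edgeR adjusted p = 8.85e-05), against a neighbourhood median of -0.39. With the chromosome median removed its log2 change was -2.47, but that median was 0.36, opposite in sign to the neighbourhood median. The part of the regional level in the change of Srxn1 was not tested. Per length, Srxn1 stood at 0.0460 and 0.0385 times the level of Prdx1 in MK2 and at 0.376 and 0.254 times in MK1. The mitochondrial thioredoxin Txn2 had 107 and 116 CPM in MK2 and 106 and 120 CPM in MK1, and its log2 change was -0.02 ± 0.11, a sign that turned in 3 alternatives. Its reductase Txnrd2 had 9.69 and 8.43 CPM in MK2 and 7.70 and 6.37 CPM in MK1, and neither gene was called (edgeR adjusted p = 0.881 and 0.136).

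The peroxiredoxins differed in make-up between the lines, with 2 of 6 higher and 2 lower. Among all tested genes 25.9% were higher and 28.6% lower. Of the 2 lower, Prdx4 passed the count filter through MK1 alone and could only be lower. Peroxiredoxins are thiol peroxidases that reduce hydrogen peroxide. Their summed level was 2258 and 2530.1 TPM in MK2 and 2413 and 2534 TPM in MK1, with overlap between the lines. Within that sum, Prdx1, a cytosolic form, made up 31.9% and 30.5% in MK2 and 17.6% and 19.3% in MK1. Prdx5, found in mitochondria, peroxisomes and cytosol, made up 12.9% and 12.3% in MK2 and 33.1% and 31.7% in MK1. Prdx6, which works with glutathione in place of thioredoxin, made up 15.8% and 19.6% in MK2 and 7.04% and 7.54% in MK1. Prdx2 took 28.7% to 31.0% in all 4 libraries.

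Prdx4 (chromosome X, 155323920 to 155338454), the peroxiredoxin of the endoplasmic reticulum, was almost without reads in MK2. It had 1 and 2 counts there, or 0.0397 and 0.0705 CPM, and 30.2 and 36.4 CPM in MK1. The ratio of summed counts was 590.2-fold lower in MK2, with a 95% counting interval of 202 to 2864 (edgeR adjusted p = 6.70e-06). The nearest tested genes, named after their values were seen, were expressed in both lines. Acot9 had 121 and 126 CPM in MK2 and 92.4 and 102 CPM in MK1, and Sms had 62.1 and 59.3 CPM in MK2 and 30.7 and 32.2 CPM in MK1. The 50 tested genes around Prdx4 had a median log2 change of -0.03.

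Prdx5 (chromosome 19, 6906819 to 6909645) had 99.4 and 108 CPM in MK2 and 259 and 267 CPM in MK1. It fell by 1.34 ± 0.11, 2.53-fold (edgeR adjusted p = 1.52e-04). The call beyond 2-fold was lost without MK1 replicate 1 (edgeR adjusted p = 0.0808) or MK1 replicate 2 (edgeR adjusted p = 0.0980) and in DESeq2 (adjusted p = 0.0775). Prdx6 (chromosome 1, 161240112 to 161251166) had 414 and 583 CPM in MK2 and 187 and 215 CPM in MK1. It rose by 1.31 ± 0.18, 2.48-fold (edgeR adjusted p = 0.00125). Prdx1 (chromosome 4, 116685599 to 116700000) had 505 and 551 CPM in MK2 and 284 and 335 CPM in MK1. It rose by 0.77 ± 0.12 (edgeR adjusted p = 0.00230), beside a neighbourhood median of 0.67, and with the chromosome median removed its log2 change was 0.40 and still called. Its exons overlap those of AV051173 by 16 bases. Prdx2, another cytosolic form, had 309 and 345 CPM in MK2 and 333 and 346 CPM in MK1 and was not called (edgeR adjusted p = 0.690). With the chromosome median removed Prdx2 was called lower (log2 change -0.34, adjusted p = 0.0346). The mitochondrial Prdx3 had 162 and 165 CPM in MK2 and 141 and 148 CPM in MK1 and was not called (edgeR adjusted p = 0.170).

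**Figure D3:**
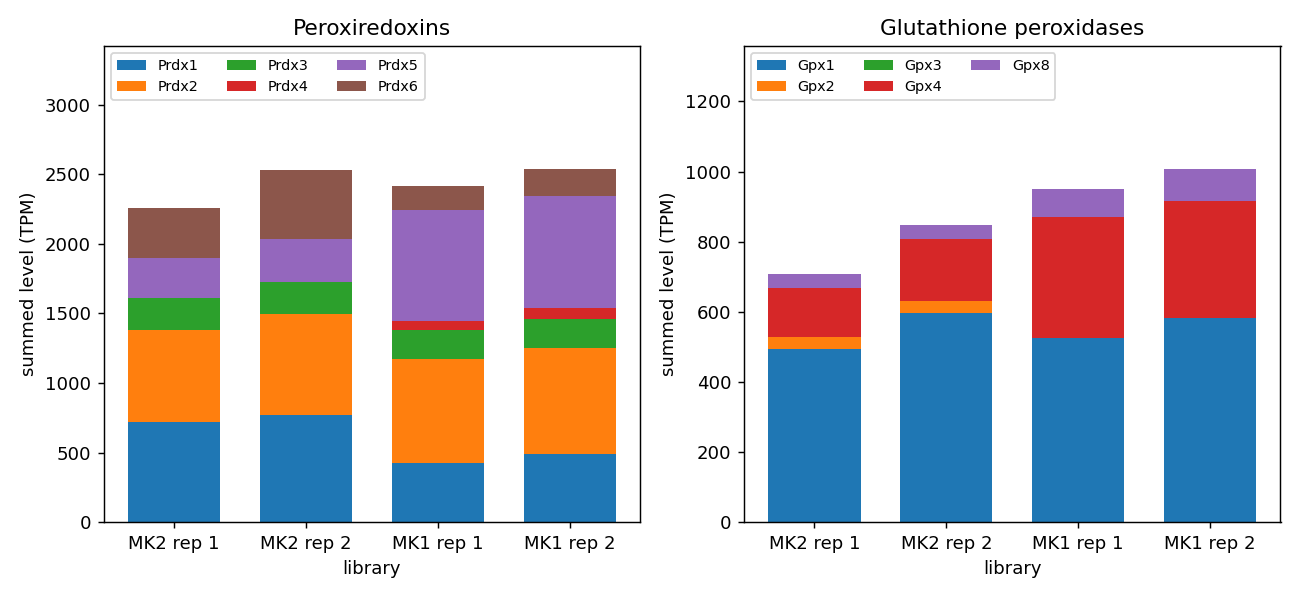
Summed TPM of the peroxiredoxins (left) and glutathione peroxidases (right) in each library, with MK2 libraries left of MK1 and colours for the genes. The peroxiredoxin totals lie between 2258 and 2534 TPM in both lines while Prdx5 holds a smaller share, and Prdx1 and Prdx6 larger ones, in MK2.

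Of the glutathione peroxidases, the gastrointestinal form rose and 2 others fell, beside 25.9% higher and 28.6% lower among all tested genes. Gpx2 (chromosome 12, 76792335 to 76795554), known from gut epithelium and as an NRF2 target, had 18.3 and 17.9 CPM in MK2. In MK1 it had 1 and 2 counts, or 0.0329 and 0.0745 CPM. The ratio of summed counts was 346, with a 95% counting interval of 118 to 1678 (edgeR adjusted p = 8.63e-06). The neighbouring tested genes, named after their values were seen, were well expressed in both lines. Churc1 had 28.7 and 27.0 CPM in MK2 and 38.6 and 40.2 CPM in MK1, and Rab15 had 219 and 156 CPM in MK2 and 441 and 320 CPM in MK1. A processed copy on chromosome 7, Gpx2-ps1 (100264544 to 100265561), had 14 and 24 counts in MK2 and 0 in both MK1 libraries, and reads of Gpx2 may be shared with it. Gpx2 was a small part of its family, with 4.89% and 3.93% of the summed TPM in MK2.

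Gpx4 (chromosome 10, 80053510 to 80056439), which reduces lipid peroxides in membranes and restrains ferroptosis, had 82.3 and 107 CPM in MK2 and 196 and 194 CPM in MK1. It fell by 1.04 ± 0.14, 2.06-fold (edgeR adjusted p = 0.00127), and with the chromosome median removed its log2 change was -0.72 and still called. Gpx8 (chromosome 13, 113042763 to 113046388), a form of the endoplasmic reticulum, had 19.5 and 21.4 CPM in MK2 and 39.4 and 43.7 CPM in MK1. It fell by 1.02 ± 0.12, 2.03-fold (edgeR adjusted p = 7.80e-04), and with the chromosome median removed by 0.61. Gpx1, the main cytosolic form, had 257 and 316 CPM in MK2 and 259 and 295 CPM in MK1 and was not called (edgeR adjusted p = 0.787). Gpx1 made up 70.0% and 70.3% of the family's TPM in MK2 and 55.1% and 57.9% in MK1. The secreted Gpx3 had 4 and 4 counts in MK2 and 8 and 8 counts in MK1 and was not tested. The ratio of these sums, 0.535, had a 95% counting interval of 0.198 to 1.32.

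Superoxide dismutases turn superoxide into hydrogen peroxide, and catalase breaks it down. Sod1 (chromosome 16, 90220742 to 90226324), the cytosolic enzyme, had 212 and 235 CPM in MK2 and 160 and 151 CPM in MK1 and rose by 0.52 ± 0.11 (edgeR adjusted p = 0.00651). The call was lost without MK1 replicate 1 (edgeR adjusted p = 0.0524), without MK1 replicate 2 (edgeR adjusted p = 0.0694) and with the chromosome median removed (edgeR adjusted p = 0.101). Cat (chromosome 2, 103453904 to 103485153), catalase of peroxisomes, had 151 and 152 CPM in MK2 and 114 and 88.9 CPM in MK1 and rose by 0.58 ± 0.14 (edgeR adjusted p = 0.0114). It was no longer called without MK1 replicate 2 (edgeR adjusted p = 0.0835) and with the chromosome median removed (edgeR adjusted p = 0.213), and the neighbourhood median of Cat was 0.43. The mitochondrial Sod2 had 69.6 and 69.7 CPM in MK2 and 66.7 and 73.3 CPM in MK1 (edgeR adjusted p = 0.961). Extracellular Sod3 had 1 count in MK2 and 0 in MK1, where 0 counts over both libraries allow a level of up to 0.0524 CPM.

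NADPH is the electron source of both reductases. Of 5 genes grouped under its supply 1 was higher and 1 lower, beside 25.9% higher and 28.6% lower among all tested genes. G6pdx, Pgd and Me1 encode enzymes that make NADPH, whereas Taldo1 and Tkt act in the pentose phosphate pathway without making it. Pgd (chromosome 4, 149149985 to 149166707), the pentose phosphate dehydrogenase after G6pdx, had 143 and 175 CPM in MK2 and 112 and 109.8 CPM in MK1 and rose by 0.52 ± 0.13 (edgeR adjusted p = 0.0128). The call was lost without MK1 replicate 1 (edgeR adjusted p = 0.0881), without MK1 replicate 2 (edgeR adjusted p = 0.0933) and with the chromosome median removed (edgeR adjusted p = 0.358). Taldo1 (chromosome 7, 141392160 to 141402976), transaldolase, had 211 and 256 CPM in MK2 and 288 and 313 CPM in MK1 and fell by 0.36 ± 0.13 (edgeR adjusted p = 0.0488). Taldo1 was no longer called without MK1 replicate 1 (edgeR adjusted p = 0.131), MK1 replicate 2 (edgeR adjusted p = 0.235) or MK2 replicate 1 (edgeR adjusted p = 0.150) and with the chromosome median removed (edgeR adjusted p = 0.146).

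The entry enzyme G6pdx, on chromosome X, had 142 and 144 CPM in MK2 and 171 and 165 CPM in MK1 and was not called (edgeR adjusted p = 0.0812), although upper-quartile scaling gave -0.29 and a call (edgeR adjusted p = 0.0417). Tkt, transketolase, had 350.3 and 388 CPM in MK2 and 459 and 445 CPM in MK1 (edgeR adjusted p = 0.0538), and passed, as lower, in 6 of 13 alternatives (adjusted p of 0.0257 to 0.0479), DESeq2 among them. Me1, the cytosolic malic enzyme, had 72.8 and 81.9 CPM in MK2 and 65.0 and 60.2 CPM in MK1 (edgeR adjusted p = 0.0568). Me1 was called higher without MK2 replicate 1 (edgeR adjusted p = 0.0307) and with the chromosome median removed (edgeR adjusted p = 0.00828). Summed over G6pdx, Pgd, Taldo1 and Tkt, the pentose phosphate enzymes stood at 793 and 903 TPM in MK2 and 1025 and 1027 TPM in MK1.

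**Figure D4:**
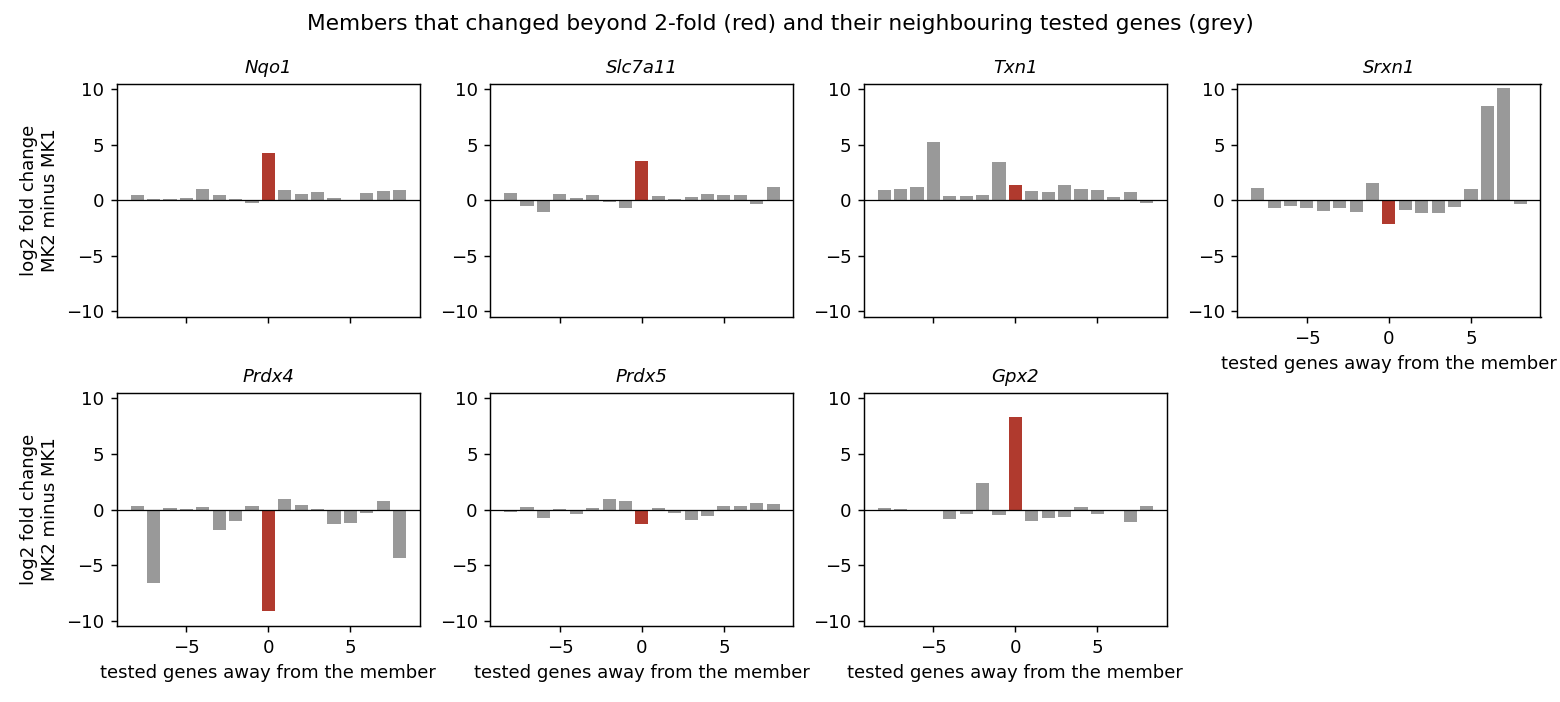
Log2 fold change (MK2 minus MK1) of the 7 genes called beyond 2-fold (red, centre) and of up to 8 tested genes on either side (grey), by their order along the chromosome. Nqo1, Slc7a11 and Gpx2 stand above their neighbours and Prdx4 below its nearest ones, while genes around Txn1 are mostly higher in MK2 as well. Several genes beside Srxn1 are lower in MK2 too, though others there are higher.

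Other genes of the pathway were taken from 8 lists with 154 symbols, of which 152 were found and 129 tested. Of these, 32 were higher in MK2 and 47 lower, together 61.2%, beside 54.6% of all tested genes (25.9% higher and 28.6% lower). Their median log2 change was -0.14, and that of all tested genes -0.01. The same shares of all tested genes apply to each list below. Of the 129, 14 passed the count filter through MK1 alone and could only be lower. Another 4 passed through MK2 alone and could only be higher. The 14 were Bach2, Abcg2, Akr1c13, Aldh1a1, Slc40a1, Slc1a1, Msrb2, Pon3, Pxdn, Nox4, Cyba, Cybb, Ncf1 and Ncf4. Ces1g and Duox2, named below, were among the 4. Among the 111 others, 28 were higher (25.2%) and 33 lower (29.7%). For all genes that reached the filter level in both lines, these shares were 26.4% and 25.3%. They apply to each count below of genes that did so. Without MK1 replicate 1 or MK1 replicate 2 fewer of the 129 were called higher, and fewer of all genes were called higher as well. Of 16 partners, competitors and degraders of NRF2, 3 were higher and 4 lower. Without Bach2, 3 of the 15 others were higher and 3 lower. Cul3, the scaffold of the ligase that KEAP1 serves, had 131 and 132 CPM in MK2 and 88.8 and 89.99 CPM in MK1 and rose by 0.56 ± 0.10 (edgeR adjusted p = 0.00347). Bach1, a repressor that competes for NRF2 sites, had 56.8 and 61.6 CPM in MK2 and 75.5 and 72.2 CPM in MK1 and fell by 0.32 ± 0.11 (edgeR adjusted p = 0.0390). Bach1 was no longer called without MK1 replicate 1 (edgeR adjusted p = 0.188), MK1 replicate 2 (edgeR adjusted p = 0.117) or MK2 replicate 1 (edgeR adjusted p = 0.122) and with the replicate block (edgeR adjusted p = 0.0756). Mafg, a small MAF partner, had a log2 change of 0.09 ± 0.12, whose sign turned without MK2 replicate 2, and Sqstm1, which sequesters KEAP1, one of -0.50 ± 0.22. Neither was called (edgeR adjusted p = 0.548 and 0.0936), but Sqstm1 passed, as lower, without MK2 replicate 2 (edgeR adjusted p = 0.00317), and DESeq2 also called it (adjusted p = 0.0487).

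Within that list the largest changes were in Nfe2l3 and Bach2. Nfe2l3, a relative of NRF2, had 0.199 and 0.705 CPM in MK2 and 10.95 and 9.46 CPM in MK1 (log2 change -4.45 ± 0.41, edgeR adjusted p = 2.73e-04). Bach2, a relative of BACH1 known from B lymphocytes, passed the filter through MK1 alone and so could only be lower. It had 0.238 and 0.282 CPM in MK2 and 2.01 and 2.38 CPM in MK1 (log2 change -3.05 ± 0.33, edgeR adjusted p = 5.26e-04). The part of the leukocyte markers in this was not tested. Maff, another small MAF, rose by 1.21 ± 0.33 (edgeR adjusted p = 0.0194), a call lost without MK1 replicate 1 (edgeR adjusted p = 0.135), MK1 replicate 2 (edgeR adjusted p = 0.0797) or MK2 replicate 2 (edgeR adjusted p = 0.0625).

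Further NRF2 targets and iron genes were divided. Of 20 tested targets outside the 37 genes, 6 were higher and 9 lower. Of these 20, 15 reached the filter level in both lines, with 4 higher and 6 lower. Aldh1a1 and Abcg2 passed through MK1 alone, and Ces1g through MK2 alone. Aldh1a1, a retinal dehydrogenase, had 0 counts in MK2 and 3.49 and 3.28 CPM in MK1, at least 60.3-fold lower against a floor of 3 counts over both MK2 libraries. Abcg2, an efflux pump, had 0.159 and 0 CPM in MK2 and 1.68 and 1.94 CPM in MK1 (edgeR adjusted p = 0.00187). Ces1g, a carboxylesterase, had 4.77 and 6.52 CPM in MK2 and 2 counts in MK1, a ratio of 163 with a 95% counting interval of 44.8 to 1353. Of 15 tested heme and iron genes, 7 were higher and 5 lower. Without Slc40a1, which passed through MK1 alone, 7 of the 14 others were higher and 4 lower. Tfrc, the transferrin receptor, had 486 and 405 CPM in MK2 and 80.6 and 109 CPM in MK1 and rose by 2.24 ± 0.17 (edgeR adjusted p = 1.51e-04), the opposite direction from Fth1. Fech, which inserts iron into heme, fell by 1.26 ± 0.10 (edgeR adjusted p = 1.64e-04). Slc40a1, the iron exporter, fell by 2.03 ± 0.47 (edgeR adjusted p = 0.0103), a call lost without MK1 replicate 2 (edgeR adjusted p = 0.0959).

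Further cystine and glutathione genes were likewise divided, and of 16 tested, 4 were higher and 5 lower. Without Slc1a1, which passed through MK1 alone, 4 of the 15 others were higher and 4 lower. Slc1a1, a glutamate and cysteine transporter, had 1 count in each MK2 library and 20.6 and 24.9 CPM in MK1, 606-fold lower in MK2 with a 95% counting interval of 167 to 5007. Cth, which makes cysteine from cystathionine, had 41.1 and 53.3 CPM in MK2 and 13.9 and 19.0 CPM in MK1 and rose by 1.52 ± 0.19 (edgeR adjusted p = 9.60e-04). Oplah, which recovers glutamate from oxoproline, fell by 3.92 ± 0.30 (edgeR adjusted p = 1.38e-04). Of 19 tested thioredoxin and glutaredoxin genes, 3 were higher and 7 lower. Without Msrb2, which passed through MK1 alone, 3 of the 18 others were higher and 6 lower. Txnip, the protein that binds and inhibits thioredoxin, had 46.4 and 37.02 CPM in MK2 and 550.03 and 490 CPM in MK1 and fell by 3.64 ± 0.15, 12.5-fold (edgeR adjusted p = 1.47e-05). Sesn3, a sestrin, fell by 4.89 ± 0.38 (edgeR adjusted p = 1.50e-04). The methionine sulfoxide reductase Msrb2 had 1 count in MK2 and 2.80 and 2.27 CPM in MK1, a ratio of 136 with a 95% counting interval of 24.1 to 5427.

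Of 14 other peroxidase and radical-handling genes, 3 were higher and 4 lower. Without Pon3, which passed through MK1 alone, 3 of the 13 others were higher and 3 lower. Pon3, a lactonase, fell by 4.48 ± 0.41 (edgeR adjusted p = 2.71e-04) and the selenoprotein gene Sepw1 by 0.79 ± 0.11 (edgeR adjusted p = 0.00114). Mgst2, a membrane glutathione transferase, rose by 1.20 ± 0.32 (edgeR adjusted p = 0.0183), a call lost without MK1 replicate 1 (edgeR adjusted p = 0.121). Of 13 other genes listed under NADPH supply, 4 were higher and 3 lower. H6pd, the hexose phosphate dehydrogenase of the endoplasmic reticulum, had 33.1 and 32.4 CPM in MK2 and 111 and 104 CPM in MK1 and fell by 1.71 ± 0.11 (edgeR adjusted p = 6.23e-05). Rpia, a pentose phosphate isomerase, fell 2.64-fold (edgeR adjusted p = 1.397e-04), and the mitochondrial folate enzyme Aldh1l2 rose by 1.51 ± 0.31 (edgeR adjusted p = 0.00628). Of 16 tested sources of superoxide and peroxide, 2 were higher and 10 lower. Only 8 reached the level of the count filter in both lines, and of these 0 were higher and 4 lower. The 6 that passed through MK1 alone were Pxdn, Nox4 and the phagocyte oxidase genes Cybb, Cyba, Ncf1 and Ncf4. Those 4 had 0 to 2 counts in each MK2 library and 10 to 29 in each MK1 library, beside leukocyte markers of which 9 of 9 tested were lower, and the part of those markers was not tested. Duox2, an oxidase that makes hydrogen peroxide at epithelial surfaces, passed the filter through MK2 alone and so could only be higher. It had 4.37 and 4.97 CPM in MK2 and 0.132 and 0.186 CPM in MK1 (log2 change 4.85 ± 0.33, edgeR adjusted p = 8.75e-05). Xdh, xanthine oxidoreductase, fell by 0.94 ± 0.11 (edgeR adjusted p = 5.98e-04), and the matrix peroxidase Pxdn had 2 counts in MK2 and 145 and 114 CPM in MK1.

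**Figure D5:**
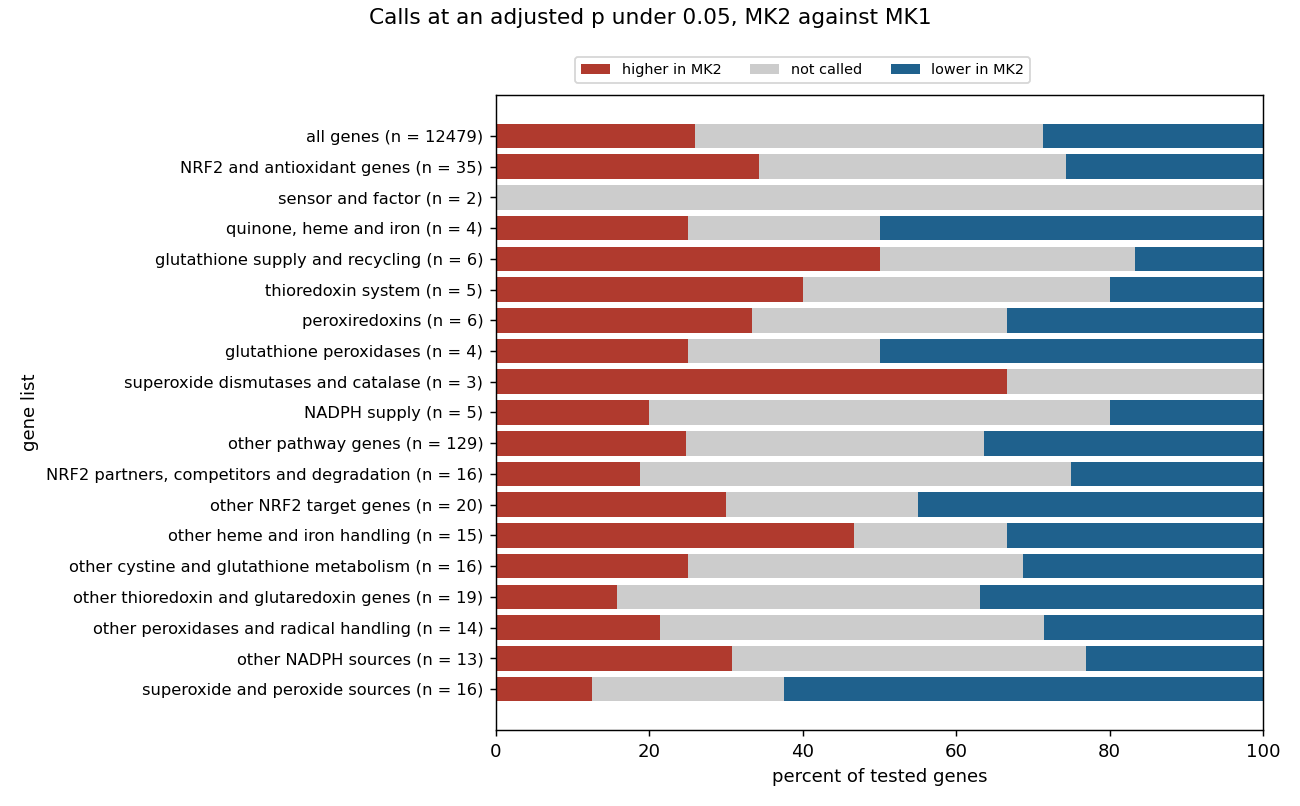
Share of the tested genes of each list that were higher in MK2 (red), not called (grey) or lower in MK2 (blue), with all tested genes in the top row and the number tested in brackets. The 35 NRF2 and antioxidant genes divide much as all genes do. Of the 10 of 16 sources of superoxide and peroxide that are lower, 6 passed the count filter through MK1 alone. The 2 that are higher passed it through MK2 alone.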

How the data were processed

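Values are raw counts of reads for each gene in the table the authors deposited. Per the file headers, the authors made them with featureCounts 1.4.6-p4 from exons of UCSC mm10 genes, using no option for strand, read pairs or multiple alignments. The submitters' processing notes name featureCounts 1.5.0 instead, beside TopHat2 2.0.13 and Bowtie2 2.2.6 for alignment and, for expression, DESeq2 1.10.1. The header's command writes MKU for the line that the columns call MK2, and samples were found by the column names.

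All genes were fitted in edgeR 4.0.16 under R 4.3.3 (filterByExpr with a minimum count of 10, TMM, two-sided quasi-likelihood F test, Benjamini-Hochberg at 0.05), with glmTreat for changes beyond 2-fold. TPM used the deposited gene lengths. Counting intervals are exact conditional binomial 95% intervals of summed counts and cover counting error only. Neighbourhood medians are over the 50 nearest tested genes.

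On simulated counts of MK2 against MK1 with 12260 genes, 96% of genes changed 2-fold and 100% of those changed 4-fold were found. Of the unchanged ones 0.0829% were called. The changed genes were drawn only from well-expressed ones, so these shares do not cover low-level members such as Nqo1, Glrx and Txnrd2. They were also a far smaller part than the 54.6% called in the data. The simulated spread followed the trend over all genes, with none particular to a gene. Replicates differed by more than counting noise (median chi-square per gene 4.28 in MK2 and 2.88 in MK1, against 0.455). The members, lists, tests and alternatives were chosen with earlier results of these data known. All 37 members are named. Of the other lists, the 3 largest called changes at 1 CPM or more without overlap are named, with Mafg, Bach1, Cul3, Sqstm1 and Txnip always. The alternatives changed the scaling, filter, tool, libraries, replicate block and chromosome level.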

Additional observations from a re-analysis of the deposited data

How the results depend on the processing

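Of 21 called members, 14 kept call and direction in every alternative that gave them a value. The other 7 were Hmox1, Gclm, Txnrd1, Sod1, Cat, Pgd and Taldo1. Of 454 member results under 13 alternatives, 405 stayed on their side of the threshold with the same sign, 19 lost and 15 gained a call, and 15 changed sign. None of the sign changes concerned a called member. For the 34 other named genes, 417 of 439 results stayed. The causes were not tested.

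With 1 library left out, members called higher ranged from 7 to 13, members higher beyond 2-fold from 2 to 5, other pathway genes called higher from 20 to 38, and all genes called from 1527 to 3222 higher and from 2189 to 3625 lower. A line left with 1 culture was assumed to vary like the other. DESeq2 called 2 members higher beyond 2-fold. Sign changes with 1 library left out gave ranges of -0.16 to 0.20 for Nfe2l2, -0.0074 to 0.12 for Keap1, -0.115 to 0.069 for Txn2, -0.134 to 0.029 for Prdx2, -0.11 to 0.19 for Gpx1, -0.077 to 0.059 for Sod2 and -0.0022 to 0.18 for Mafg. Upper-quartile scaling gave -0.032 for Nfe2l2 and -0.0098 for Gpx1. With chromosome medians removed, Nfe2l2 had -0.33, Gss -0.23, Txn2 0.061 and Sod2 0.044.

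With the replicate block the members called were 12 higher and 8 lower, with the call on Hmox1 lost (edgeR adjusted p = 0.0549) and no other member's at that threshold, and beyond 2-fold that on Txn1 was lost (edgeR adjusted p = 0.0504). Replicate 2 minus replicate 1 correlated weakly and negatively between the lines (r = -0.15 over 12479 genes). A crossed block was therefore added after seeing the data, and it called 13 members higher and 12 lower. It was chosen from the same data that it was fitted to, so its extra calls are not support. At 25237391 counts or more per library, levels under about 0.1 CPM (Nqo1 and Gpx2 in MK1, Prdx4 in MK2, Sod3) rest on 0 to 2 counts.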
